A study of Mus musculus with 20 samples.

Results

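Neutrophils taken from the bone marrow of untreated mice were compared between WT mice and mice lacking Bmal1 in myeloid cells (Bmal1 Mye-/-), with 5 RNA-seq libraries per genotype, 1 per mouse. These 10 libraries were all of the untreated libraries among the 20 of the series. The other 10, also 5 per genotype, came from mice treated with imiquimod (IMQ) cream for 6 weeks and are used here only as a second set of mice. All 24421 genes of the count files entered, and 13339 had enough reads to be tested. The WT mice were C57BL/6J animals bought from a supplier, while the Bmal1 Mye-/- mice, which carry a floxed Bmal1 and a Cre recombinase inserted at Lyz2 (LysM-Cre), were bred in the institute's own facility from strains B6.129S4(Cg)-Bmal1tm1Weit/J and B6.129P2-Lyz2tm1(cre)Ifo/J. Genotype, colony and any difference in background strain therefore cannot be told apart in these data, and no group carries the Cre or the floxed allele alone. All mice were female and were killed in the morning, so a single phase of the day was sampled, and the age of the untreated mice is not given in the sources used here. Neutrophils were enriched by magnetic negative selection, which leaves the cells untouched by antibody but can also leave cells of other types.

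BMAL1, which the files list as Arntl, pairs with CLOCK to switch on genes that carry an E-box, among them the Per and Cry genes, whose products then block the pair. A second loop runs through Nr1d1, Nr1d2 and the Ror genes, which act on Arntl itself, and outputs such as Dbp, Tef and Hlf pass the rhythm on. Neutrophils build their granules in sequence while they mature in the marrow, the primary granules first and the secondary and tertiary granules later, and the clock of neutrophils is known for its part in their ageing and in their release into and clearance from blood.

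Reads counted on genes numbered 67652755 to 79689416 in the WT libraries and 30782166 to 92613500 in the Bmal1 Mye-/- libraries, and a further 53.7% to 55.7% of the reads in a file lay on no gene. Bmal1 Mye-/- replicate 3 had the fewest reads, the fewest genes with a read (14656, against 16221 to 18697 in the other 9 libraries) and the lowest position on the first principal component (−61.8, against −29.7 to 46.0). That component held 39.9% of the variance, and the genotypes overlapped on it. On the second component (16.4%) WT replicates 1 to 3 were at 17.6, 23.95 and 35.2. WT replicates 4 and 5, at −8.66 and −8.97, lay within the Bmal1 Mye-/- range of −33.2 to 0.23. The cells were neutrophils by their defining genes: S100a8, S100a9, Ngp and Retnlg were the 4 genes with the highest level per length in both genotypes. Over genes above 10 CPM (counts per 1000000 reads on genes, scaled with TMM factors), the median coefficient of variation between mice was 8.75% in WT and 7.53% in Bmal1 Mye-/-.

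Few genes were called between the genotypes at steady state. At an adjusted p under 0.05, 59 genes were called, 0.442% of those tested. Of these, 35 (0.262%) were higher and 24 (0.18%) lower in Bmal1 Mye-/-. In the same edgeR test 906 of the 13339 genes had an unadjusted p under 0.05, where uniform p-values would give 667. Most of the called genes, 39 of 59, lay on chromosome 7, which held 7.62% of the genes tested, and Arntl itself lies there. Called means that edgeR's quasi-likelihood test of the 5 against the 5 libraries passed after Benjamini-Hochberg adjustment over all tested genes. The call rests on the fit: a model of all 20 libraries called 29 genes (15 higher, 14 lower), and DESeq2 called 141, with 101 higher and 40 lower. The count also rested on single libraries, with 35 calls without WT replicate 1, Bmal1 Mye-/- replicate 1 or Bmal1 Mye-/- replicate 2, 36 without WT replicate 3 or Bmal1 Mye-/- replicate 5, and 90 without Bmal1 Mye-/- replicate 3. Chromosome 7 held 26 of the 29 and 64 of the 141, and 43 of the 90, so that in these last 2 fits more of the called genes lay on other chromosomes (77 and 47). For 11051 genes, 82.8% of those tested, the 95% interval of the fold change lay inside 2-fold in either direction, and for 8946 genes (67.1%) it lay inside 1.5-fold. This share depended on level, since 99.2% of the 1879 genes at 100 CPM or more had an interval inside 2-fold, 98.7% of the 4935 genes from 10 to 100 CPM, and 32.0% of the 2520 genes under 1 CPM. The 2 groups of 5 libraries did not overlap for 197 genes, 1.48% of those tested, among them all 59 called genes.

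The targeted gene had a lower mean in Bmal1 Mye-/-, with an overlap between the groups. Arntl (chromosome 7, 113207465 to 113314126 of mm10) was at 1.15, 1.56, 1.71, 0.883 and 1.36 CPM in WT replicates 1 to 5 and at 1.09, 0.571, 0.702, 0.461 and 0.752 CPM in Bmal1 Mye-/- replicates 1 to 5. Replicate 1 of Bmal1 Mye-/- lay above WT replicate 4, and the other 4 lay below every WT library. The means were 1.33 ± 0.326 (SD, n = 5) and 0.716 ± 0.24 (SD, n = 5), which is −0.89 as a log2 fold change (standard error 0.27, 95% interval −1.48 to −0.31) that did not pass the adjustment over all genes (adjusted p = 0.471). Tested as a single gene, it gave p = 0.0159 in the two-sided exact permutation test of log2 CPM, where 0.00794 is the smallest p possible. Each file holds 1 count per gene, so reads on the floxed part and on the rest of Arntl are counted together.

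Lyz2, which encodes the lysozyme of myeloid cells and holds the Cre insertion, fell steeply. It was at 11287, 10408, 11573, 11876 and 11209 CPM in the WT libraries and at 149, 177, 114, 99.9 and 131 CPM in the Bmal1 Mye-/- libraries, without overlap. The fold was 83.9 (log2 fold change −6.39, standard error 0.16, adjusted p = 2.56e-10). Lyz1, its neighbour and the lysozyme gene of Paneth cells, was at 11.8 ± 0.725 CPM (SD, n = 5) in WT and 10.9 ± 1.79 CPM (SD, n = 5) in Bmal1 Mye-/-, with an interval of −0.36 to 0.13 on the log2 scale. Of the words of 50 bases in Lyz2 transcripts, 15.4% also occur in Lyz1, so a part of the reads of either gene could not be placed by sequence alone.

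**Figure D1:**
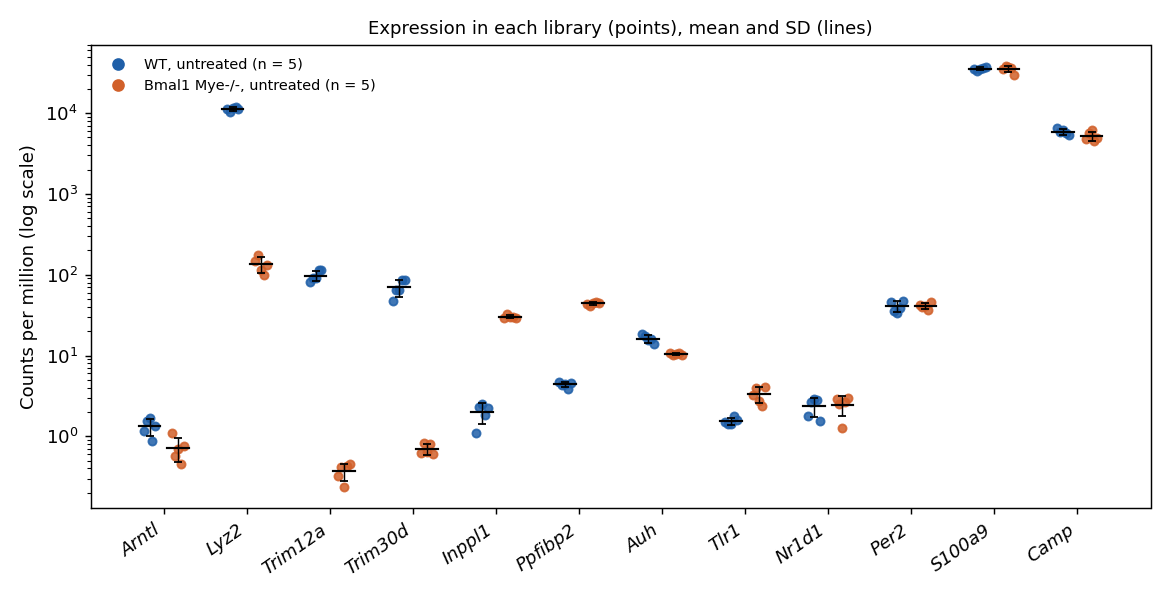
CPM on a log axis for 12 genes in each untreated library (blue, WT; orange, Bmal1 Mye-/-), with the mean and SD of 5 libraries as black lines. Lyz2, Trim12a and Trim30d sit far lower and Inppl1 and Ppfibp2 far higher in Bmal1 Mye-/-, while Nr1d1, Per2, S100a9 and Camp overlap.

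The steady-state transcriptome was dominated by granule and calcium-binding protein genes at nearly equal levels in both genotypes. As CPM after division by exon length (TPM), S100a9, a subunit of the antimicrobial calprotectin, stood at 166792 ± 3602 (SD, n = 5) in WT and 170838 ± 9366 in Bmal1 Mye-/-. Its partner S100a8 followed at 87894 ± 3519.9 and 86449 ± 6274, and Ngp, a neutrophil granule protein, at 57572 ± 6044 and 54585 ± 3730.2. The 95% intervals of the log2 fold change, from the counts, were −0.16 to 0.15 for S100a9, −0.24 to 0.11 for S100a8 and −0.28 to 0.05 for Ngp. Of the 20 genes with the highest TPM in WT, 19 were also among the 20 highest in Bmal1 Mye-/-, and of the 100 highest 98 were shared. The missing one of the 20 was Lyz2, at rank 5 in WT with 21069 ± 761 TPM and at rank 414 in Bmal1 Mye-/- with 259 ± 60.7. The rest of the 20 were Retnlg, Camp, Ltf, Actb, Tmsb4x, Lcn2, Chil3, Mmp9, S100a11, Mmp8, Tyrobp, Hp, Arhgdib, Wfdc21, Cd177 and Msrb1, ranked by level after the values were seen. The 10 highest took 42.0% to 44.1% of the TPM of a WT library and 38.4% to 42.5% of that of a Bmal1 Mye-/- library.

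Among the genes of the clock itself, the promoters of 6 hold the E-box CACGTG, which is its own reverse complement, in the 250 bases before a start site. They are Per1, Cry1, Tef, Bhlhe41, Ciart and Tspan4. The 30-base windows of 5 of these sites are shown 5′ to 3′ in the direction of the gene, from RefSeq on GRCm38.p6, because BMAL1 is known to act through this motif, whose letters are in capitals.
Per1: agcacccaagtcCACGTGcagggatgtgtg
Cry1: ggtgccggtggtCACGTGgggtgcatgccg
Tef: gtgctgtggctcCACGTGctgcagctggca
Bhlhe41: tggtacgttccgCACGTGagctgggtgctg
Ciart: tgcatctagagtCACGTGttgccggtaagc
They lie at chr11:69098771-69098800 (plus strand), chr10:85185097-85185126 (minus), chr15:81802534-81802563 (plus), chr6:145865556-145865585 (minus) and chr3:95882327-95882356 (minus). The motif occurs in this window of 6.02% of all 32851 promoters listed, and in at least 1 promoter of 6.86% of the genes listed, of 9.69% of the tested genes, of 7 of the 48 called genes (14.6%), of 2 of the 9 core clock genes and of 4 of the 13 output genes that have an entry. A match is a run of letters and not a bound site.

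No clock gene was called in either direction, nor in the alternative fits that gave it an adjusted p, 17 to 19 of the 19 for each gene. In the core loop 11 of 12 genes could be tested by edgeR, with 0 calls, 1 gene at an unadjusted p under 0.05 (Arntl) and 0 calls by DESeq2. Of the 11, 8 had an interval inside 2-fold. Their median log2 fold change was 0.06, beside −0.0015 over all genes tested. Per2, a repressor of the loop, was at 46.3, 35.8, 33.5, 39.2 and 47.8 CPM in WT and 41.9, 40, 40.5, 36.6 and 45.6 CPM in Bmal1 Mye-/-, and all of the latter lay within the WT range. Its log2 fold change was 0.01 with an interval of −0.21 to 0.24. Cry1, with the E-box shown, was at 35.6 ± 2.47 and 38.1 ± 3.26 CPM (SD, n = 5 each), an interval of −0.06 to 0.25.

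Clock, the partner of BMAL1, was at 4.25 ± 0.63 and 4.41 ± 0.809 CPM (interval −0.28 to 0.40), and Npas2, which can replace it, was near the limit of detection at 0.147 ± 0.065 and 0.252 ± 0.158 CPM (interval −0.27 to 1.95). The genes of the kinases that mark PER proteins for turnover had narrow intervals, −0.03 to 0.17 for Csnk1d and −0.08 to 0.21 for Csnk1e. Cry2 (−0.23 to 0.29) and Per3 (−0.55 to 0.16) lay inside 2-fold as well. Per1 could not be bounded to that extent, because its libraries ranged from 47.3 to 259.6 CPM in WT and from 60.7 to 237 CPM in Bmal1 Mye-/- (interval −0.83 to 1.10).

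In the second loop and the outputs 14 genes were tested by edgeR, with 0 calls, 2 genes at an unadjusted p under 0.05 and 0 calls by DESeq2. Of these, 11 had an interval inside 2-fold, and the median of 0.01 changed sign in 9 of the 19 alternative fits. Nr1d1, the repressor of Arntl, was at 1.79, 2.66, 2.94, 2.8 and 1.57 CPM in WT and 2.91, 2.51, 1.27, 2.69 and 2.96 CPM in Bmal1 Mye-/-. The 2 groups covered nearly the same range (log2 fold change 0.08, interval −0.46 to 0.62). Dbp, an output read straight from E-boxes, was at 2.53 ± 0.239 and 2.36 ± 0.351 CPM (interval −0.42 to 0.20), and Ciart, which the loop also drives, at 1.37 ± 0.237 and 1.27 ± 0.235 CPM (interval −0.54 to 0.30). Rora, an activator of Arntl, had the highest estimate at 1.31 but few reads (0.0583 to 0.396 CPM in WT, 0.334 to 0.905 in Bmal1 Mye-/-) and did not pass (adjusted p = 0.608).

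Bhlhe40, a repressor that competes for E-boxes, was at 25.9, 25.5, 25, 24 and 27.4 CPM in WT and 17.1, 17.5, 22.4, 24.3 and 23.6 CPM in Bmal1 Mye-/-, where 1 library reached the WT range. Its log2 fold change of −0.29 (interval −0.51 to −0.06) did not pass either (adjusted p = 0.618). The remaining outputs had intervals of −1.07 to 0.55 (Nr1d2), −0.70 to 0.57 (Tef), −0.09 to 0.44 (Hlf), −0.10 to 0.45 (Nfil3), −1.94 to 0.41 (Bhlhe41), −0.09 to 0.37 (Usp2), −0.31 to 0.61 (Wee1), −0.71 to 0.36 (Timeless) and −0.44 to 0.81 (Tspan4). Nr1d2, Bhlhe41 and Rora were the 3 whose intervals reached past 2-fold.

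**Figure D2:**
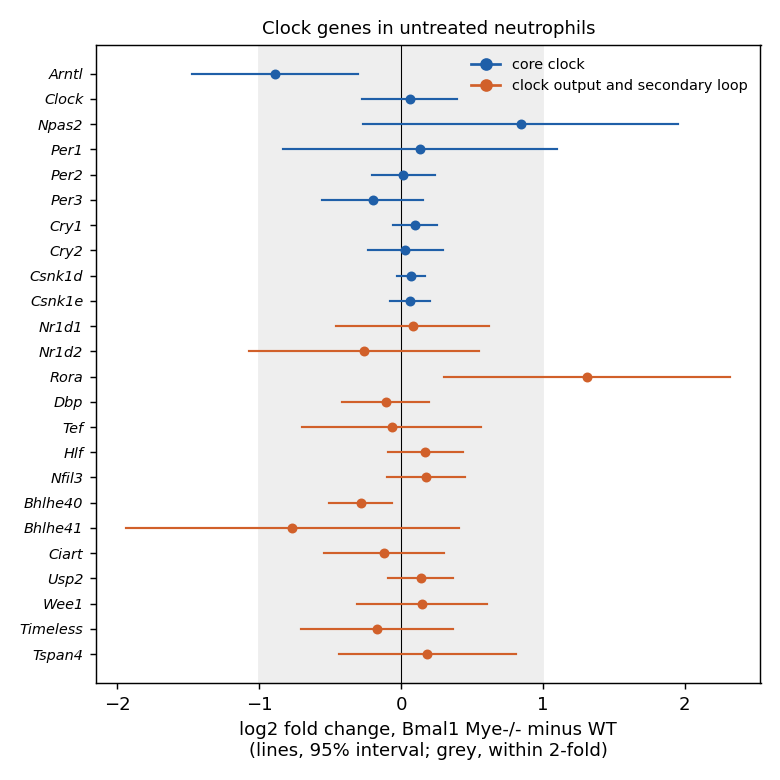
Log2 fold change (Bmal1 Mye-/- minus WT) of 24 of the 25 tested clock genes with 95% intervals as lines, core genes in blue and outputs in orange, and the range inside 2-fold in grey. The intervals of Arntl, Rora and Bhlhe40 leave out 0, but none of the genes passed after adjustment.

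Granule genes, which mark the steps of neutrophil maturation, had 1 call, Lyz2. For all the lists without a call that follow, 15 with the clock lists and 433 tested genes in all, edgeR gave 0 calls and 23 genes at an unadjusted p under 0.05, limma gave 0 calls, and DESeq2 gave 5, namely Tgfb1, Csf2rb, Slc2a1, Rpl13a and Ndufc2. Over all genes, edgeR gave 906 of 13339 at that unadjusted p, and limma called 55 of 13339. DESeq2 called 141 of the 24421 genes it was given, and 7557 of the 24421 had no adjusted p. Its share over all genes therefore has another base than that of edgeR. Of the primary granule genes 0 of 9 tested were called and 8 had an interval inside 2-fold (median −0.04). Mpo, the myeloperoxidase of these granules, was at 264, 332, 605, 86.6 and 180.3 CPM in WT and 243, 179, 300.2, 189 and 517 CPM in Bmal1 Mye-/-, a spread within each genotype that exceeded the difference of the means. Its interval was −0.999 to 0.92, and those of the proteases Elane and Ctsg, −0.93 to 0.78 and −1.13 to 0.74, were of like width. Prtn3, another such protease, had −0.78 to 0.86, while Serpinb1a, an inhibitor of these proteases, was bounded tightly at −0.19 to 0.19. Ctsc, which activates the proteases, was at 15.9 ± 2.21 and 19.8 ± 7.31 CPM (interval −0.13 to 0.77), and Bpi was at or under 0.225 CPM in every library and was not tested.

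Of the 16 secondary and tertiary granule genes 15 had an interval inside 2-fold, all but Lyz2. Ngp was at 28544 ± 2493 and 26309.7 ± 2085 CPM (interval −0.28 to 0.05), and Ltf, lactoferrin, at 22302 ± 1036 and 21727 ± 1315 CPM (interval −0.17 to 0.09). Camp, the cathelicidin, was at 6486, 5886, 6180.1, 5607 and 5324 CPM in WT and at 4768, 5665, 6164, 4522 and 4937 CPM in Bmal1 Mye-/-. The Camp groups overlapped, and the log2 fold change of −0.18 (interval −0.37 to 0.02) did not pass. Arg2, an arginase, had the highest estimate of the list at 0.38 (interval 0.03 to 0.73, adjusted p = 0.697). The 20 late maturation genes gave a median of 0.02 with 19 of 20 intervals inside 2-fold, the exception being Cxcl2 (−1.01 to 0.63). Ifitm2, an interferon-inducible membrane gene, had the smallest p of them at a log2 fold change of 0.30 (interval 0.12 to 0.48, adjusted p = 0.364).

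Receptors that hold neutrophils in the marrow or call them into blood stayed within narrow bounds. Of the 16 chemoattractant receptor and adhesion genes tested, all 16 had an interval inside 2-fold and 0 were called (median 0.10). Cxcr4, the receptor that retains cells in the marrow, was at 474 ± 33.9 CPM (SD, n = 5) in WT and 452 ± 31.4 in Bmal1 Mye-/- (interval −0.21 to 0.07). Cxcr2, which draws them out, was at 1116, 1162, 1224, 1705 and 1727 CPM in WT and at 1779.9, 1773, 1501, 1623 and 1618 CPM in Bmal1 Mye-/-. The first 3 WT values lay below the Bmal1 Mye-/- range and the other 2 within it, and the interval was −0.02 to 0.54. The integrin genes Itgam (−0.16 to 0.14) and Itgb2 (−0.10 to 0.15) had narrower intervals, and Selplg, a selectin ligand, was at a log2 fold change of 0.21 (adjusted p = 0.697). In the list of neutrophil ageing genes, which shares several of these, 11 of 12 intervals were inside 2-fold, again with the exception of Cxcl2; Cd24a, a surface glycoprotein, had an interval of −0.18 to 0.03.

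Genes of the oxidative burst and of extracellular traps gave 0 calls of 13 and a median of −0.06. Ncf1 and Cybb, subunits of the NADPH oxidase, had intervals of −0.29 to 0.01 and −0.19 to 0.07, and Cyba one of −0.23 to 0.01. Padi4, the enzyme that citrullinates histones, was at 1288 ± 131 and 1237 ± 57.8 CPM (interval −0.22 to 0.10). Only Padi2, at a few CPM, had an interval that reached past 2-fold (−0.21 to 1.29).

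In the cytokine list 0 of 18 genes were called and 15 intervals were inside 2-fold (median 0.04). Tnfsf13, the gene of the B-cell factor APRIL, was at 1.01, 1.06, 0.951, 0.509 and 1 CPM in WT and 0.845, 1.06, 0.736, 0.461 and 0.853 CPM in Bmal1 Mye-/-. Replicate 4 of both genotypes was the lowest, the groups overlapped, and the interval was −0.78 to 0.40. Tnfsf13b, the gene of BAFF, was at 90.9 ± 6.95 and 88.3 ± 4.06 CPM (interval −0.17 to 0.09). Ifna4 had reads in 1 library only, at 0.0139 CPM.

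Tgfb1, a regulatory cytokine gene on chromosome 7, was at 112, 116, 118, 115 and 116 CPM in WT and 129.9, 128, 140.3, 131 and 136 CPM in Bmal1 Mye-/-, without overlap. The step was small, at a log2 fold change of 0.20 (interval 0.10 to 0.30), and did not pass (adjusted p = 0.117). Ccl6 (−0.40 to 0.26), Osm (−0.39 to 0.70) and Il18 (−0.06 to 0.74) did not pass either.

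Toll-like receptor signalling held 1 called gene of 19, and 16 intervals were inside 2-fold (median 0.11). Tlr1, which pairs with TLR2 to sense bacterial lipoproteins, was at 1.5, 1.41, 1.4, 1.78 and 1.61 CPM in WT and at 3.27, 3.97, 2.78, 2.4 and 4.13 CPM in Bmal1 Mye-/-. Every Bmal1 Mye-/- library lay above every WT library, at a log2 difference of 1.11 (standard error 0.17, adjusted p = 0.0151), but the call remained in 5 of the 10 fits that left out 1 library. Tlr2 was at 132, 115, 131, 190.3 and 232 CPM in WT and 317, 292, 194, 225 and 240.3 CPM in Bmal1 Mye-/-, with an overlap (log2 fold change 0.66, adjusted p = 0.424). The adaptor gene Myd88 (−0.04 to 0.26), Unc93b1, which escorts the endosomal receptors (−0.27 to 0.04), and Tlr13 (−0.10 to 0.44) were bounded inside 1.5-fold. Tlr7, the receptor of imiquimod, was at 27.3 ± 6.06 and 28.3 ± 4.59 CPM (interval −0.29 to 0.40).

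Interferon-stimulated genes numbered 0 calls of 22, with a median of 0.07 and 20 estimates above 0; this median went below 0 in 2 of 19 alternative fits. Oas3 (−0.27 to 0.33) was bounded inside 1.5-fold, and Ifit2 (−0.12 to 0.50) and Mx1 (−0.27 to 1.24) had the smallest p. Among the factors and receptors of granulopoiesis 0 of 23 were called and 21 were inside 2-fold (median 0.09). Csf3r, the receptor of the main growth factor of neutrophils, was at 2572 ± 302 and 2832 ± 254 CPM (interval −0.05 to 0.33), and Cebpe, a driver of granule genes, at 394 ± 28.5 and 379.8 ± 34.3 CPM (interval −0.21 to 0.10). Csf2rb, a shared receptor chain, was at 395, 388, 389.9, 459 and 447 CPM in WT and 569, 565, 496, 481 and 508 CPM in Bmal1 Mye-/-. Its groups did not overlap, at a log2 fold change of 0.33 (interval 0.18 to 0.49, adjusted p = 0.105). Csf1r was at 0.21 (adjusted p = 0.64), and the early response genes Fos (−0.61 to 0.54) and Junb (−0.33 to 0.82) varied more between mice.

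Metabolic and proliferation genes were close between genotypes. Glycolysis gave 0 calls of 20 and a median of 0.03, with intervals of −0.06 to 0.17 for Pkm and −0.18 to 0.12 for Gpi1. Slc2a1, a glucose transporter, was at 47, 49.4, 55.9, 68.2 and 68.1 CPM in WT and 72.7, 89.6, 80.1, 79.2 and 76.9 CPM in Bmal1 Mye-/-, without overlap but also without passing (log2 fold change 0.47, adjusted p = 0.165), and Pfkl was at 0.20 (adjusted p = 0.608). The S phase list gave 0 of 43 calls (median 0.00, 42 intervals inside 2-fold), and the G2/M list 0 of 52 (median −0.02, all 52 intervals inside 2-fold). Hmgb2 (−0.20 to 0.09), Lbr (−0.12 to 0.21), Rfc2 (−0.16 to 0.09) and Pcna (−0.26 to 0.30), the sliding clamp of DNA replication, are examples. Such genes are known to be on in dividing precursors and off in mature neutrophils.

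Of the oxidative phosphorylation genes, 0 of 78 were called, yet 70 of the estimates lay below 0, with a median of −0.09 that stayed between −0.12 and −0.07 in the 19 alternative fits. Ndufc2, a subunit of complex I on chromosome 7, had the lowest estimate at −0.55 (adjusted p = 0.324), and Cox7b was at −0.21 (adjusted p = 0.602). Of the cytosolic ribosomal protein genes 0 of 82 were called and 64 estimates lay below 0 (median −0.05). Rpl13a, again on chromosome 7, was the one with the smallest p, at 258 ± 34.5 and 207 ± 9.9 CPM (log2 fold change −0.32, adjusted p = 0.324). Genes of 1 list are not independent, and these medians are given as descriptions.

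**Figure D3:**
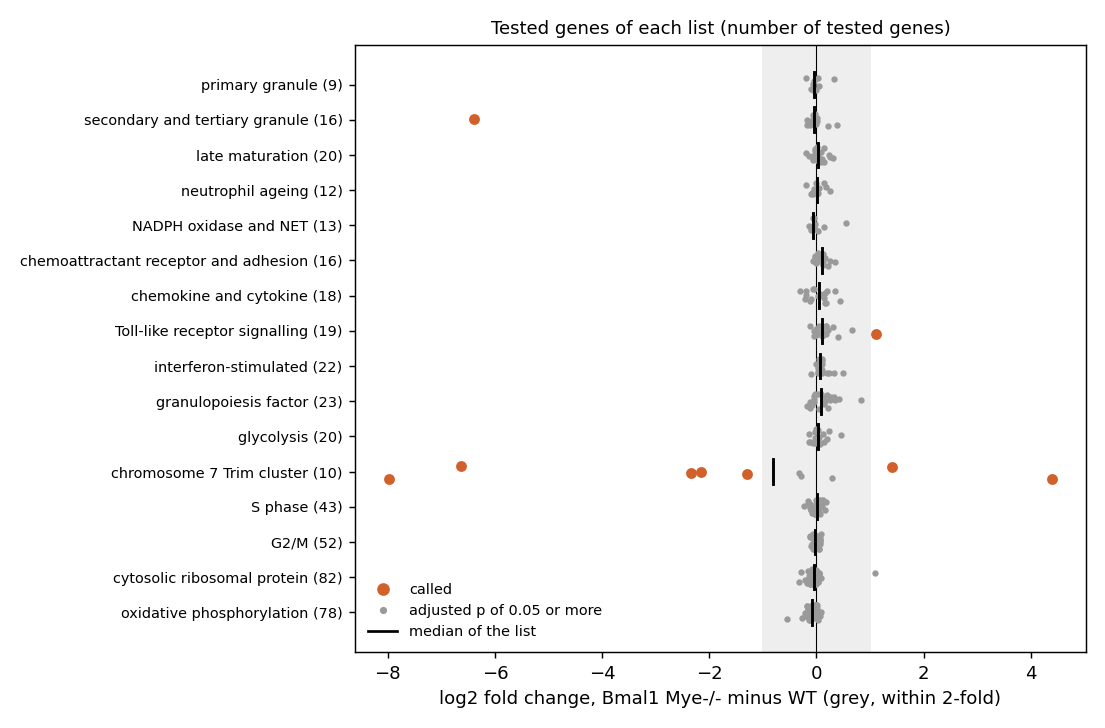
Log2 fold change (Bmal1 Mye-/- minus WT) of each tested gene in 16 lists, with list medians as black bars, called genes in orange and the range inside 2-fold in grey. The called genes of these lists are Lyz2, Tlr1 and 7 genes of the chromosome 7 Trim cluster.

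The called genes of chromosome 7 formed a stretch that ended at Arntl. Its 39 called genes (17 higher, 22 lower) were 3.83% of the 1017 tested there, while no other chromosome exceeded 0.455%. They started between positions 38183217 and 113315626, a span of 75.1 Mb whose distal end lies 0.108 Mb past the start of Arntl. Beyond that last gene, Btbd10, edgeR tested 293 genes on the same chromosome and called 0, and DESeq2 also called 0 there. Before the first called gene edgeR tested 349 with 0 calls, while DESeq2 called 2 there, Bcl3 and Tgfb1, and Bcl3 was also called without WT replicate 5. In the 10 Mb before Arntl 12 of 55 tested genes were called (21.8%), in the next 10 Mb 13 of 73 (17.8%), from 20 to 30 Mb away 1 of 29 (3.45%), from 30 to 40 Mb away 6 of 57 (10.5%), from 60 to 70 Mb away 4 of 111 (3.6%) and from 70 to 80 Mb away 2 of 30 (6.67%), with 0 of 11 and 0 of 28 in the windows between. Within the stretch some genes rose and others fell, side by side.

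**Figure D4:**
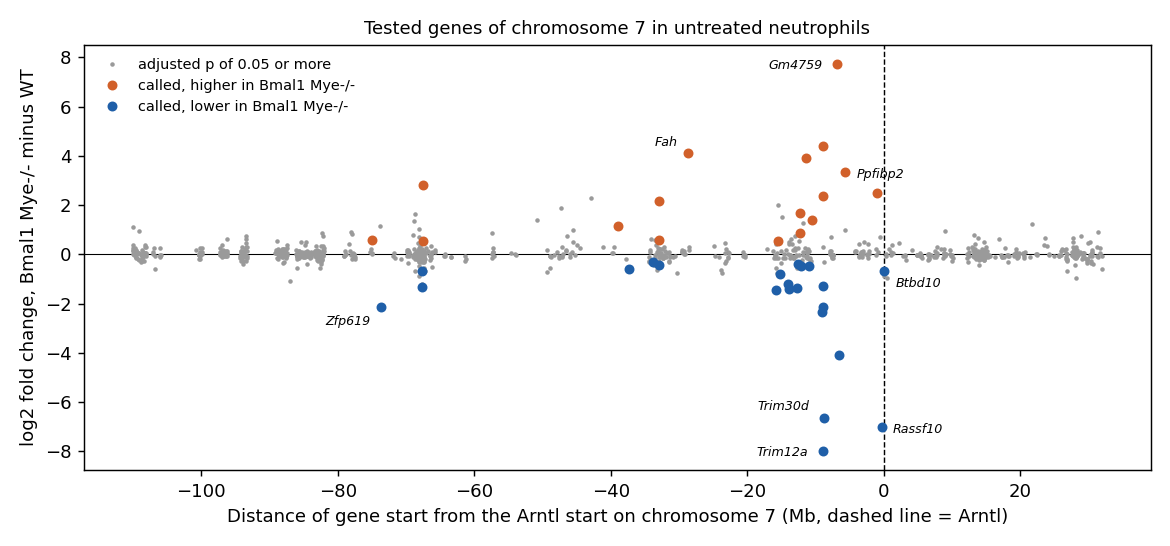
Log2 fold change (Bmal1 Mye-/- minus WT) of the 1017 tested genes of chromosome 7 by the distance of their start from that of Arntl in Mb (dashed line), with called genes coloured by direction. The 39 called genes lie from −75.0 to 0.108 Mb, and none lies farther to the right.

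The Trim cluster, a family of antiviral and immune ubiquitin ligase genes held 7 called genes of 10 tested, 8.74 to 10.5 Mb before Arntl. Trim12a (104299894 to 104315466) was at 80.4, 89.8, 90.8, 114 and 114 CPM in WT and at 0.319, 0.42, 0.234, 0.424 and 0.448 CPM in Bmal1 Mye-/-. Its counts were near 0 in all 5 Bmal1 Mye-/- libraries, a fold of 253 (log2 fold change −7.98, standard error 0.16, adjusted p = 4.99e-11). Counts rest on reads aligned to a single reference genome. Whether differences in strain sequence affect the counts of this stretch was not tested. Trim30d (104470014 to 104507849) was at 46.9, 65.5, 65.3, 86.7 and 86.5 CPM in WT and 0.624, 0.819, 0.635, 0.811 and 0.607 CPM in Bmal1 Mye-/-, 99.1-fold lower. Trim30b fell by a factor of 4.45, from 159.7 ± 23.1 to 35.9 ± 2.92 CPM (SD, n = 5). Trim34a also fell (log2 fold change −1.29) and Trim6 did so at lower levels (−2.33, adjusted p = 0.0469, called in 1 of the 10 fits that left out a library).

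Trim34b rose instead, from 0.393 ± 0.129 to 8.29 ± 0.995 CPM (log2 fold change 4.40), and Trim68 rose by 1.41. Of the 50-base words of Trim34b transcripts 56.8% also occur in Trim34a, and only reads outside that part can tell these genes apart, so their opposite values are uncertain. For Trim12a the share that also occurs in Trim12c was 3.96%, for Trim30d and Trim30a 6.39%, and Trim12c, Trim30a and Trim21 had intervals inside 2-fold (0.08 to 0.51, −0.59 to −0.07 and −0.50 to −0.08). These intervals leave out 0, and all 10 tested genes of the cluster had an unadjusted p under 0.05 in edgeR. Gm15133, an antisense gene that overlaps Trim12a, rose by 2.35 while Trim12a fell; whether counting used the strand is not given in the sources used here.

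Nearer to Arntl, 2 genes that are annotated as unprocessed pseudogenes moved in opposite directions. Gm1966 was at 178, 179, 199.7, 255 and 229 CPM in WT and 11.1, 11.6, 13.6, 14.5 and 11.3 CPM in Bmal1 Mye-/-, 16.8-fold lower (adjusted p = 1.7e-09). Gm4759 was at 0.117, 0.0283, 0.0853, 0.165 and 0.103 CPM in WT and 21.9, 20.4, 23.3, 25.8 and 15.6 CPM in Bmal1 Mye-/-, near 0 in WT only (log2 fold change 7.73, standard error 0.26). These transcripts share under 0.6% of their 50-base words, and further related copies were not compared.

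The same stretch held protein-coding genes of signalling and metabolism. Ppfibp2, a liprin of the cell cortex (107595207 to 107748583), was at 4.65, 4.37, 4.46, 3.83 and 4.6 CPM in WT and 43.8, 41.3, 44.7, 46.5 and 44.7 CPM in Bmal1 Mye-/-. The libraries of each genotype lay within a few CPM of one another and 10.1-fold apart between genotypes (log2 fold change 3.33, standard error 0.07, adjusted p = 4.99e-11). Inppl1, the gene of the lipid phosphatase SHIP2 (101822632 to 101838229), was at 1.09, 2.32, 2.54, 1.86 and 2.22 CPM in WT and 29.4, 32.5, 30.4, 29.8 and 29 CPM in Bmal1 Mye-/-, 15-fold higher. P2ry2, a receptor of extracellular nucleotides, rose from 13.9 ± 0.873 to 44.3 ± 6.2 CPM (3.18-fold). Its relative P2ry6 rose by 0.87 on the log2 scale (adjusted p = 0.0274, called in 3 of the 10 fits that left out a library).

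Fah, the last enzyme of tyrosine breakdown (4.11), Mical2, an actin oxidase (2.49), Fut2, a fucosyltransferase (2.81), Hddc3 (2.17), Slco3a1, a transporter (1.17), Ngrn (0.60), Rasip1 (0.56), Pak1, a kinase of cell motility (0.54), and 1600014C10Rik (0.58) rose as well. Lower values belonged to Zfp619 (−2.12), Map6 (−1.39), Coa4, an assembly factor of cytochrome oxidase (−1.35), Bcat2, which breaks down branched-chain amino acids (−1.32), Mogat2 (−1.22), Btbd10 (−0.68), Nucb1 (−0.68), Stim1, the calcium sensor of the endoplasmic reticulum (−0.46), and Unc45a (−0.44). Rassf10 had 222 reads over the WT libraries and 1 over the Bmal1 Mye-/- libraries, a ratio of 199 with a 95% counting interval of 35.3 to 7880 (exact binomial, counting error only). Ppfibp2, Inppl1, Mical2, Nucb1, Bcat2, Hddc3, Rasip1, Polg, Rab6a and Fchsd2 each overlap another annotated gene, as do Trps1 and Jak3 on other chromosomes. The counts of these genes depend on how such reads were assigned. The remaining called genes of the chromosome were Polg, Rab6a, Myo7a, Klhl25, Alg8 and Fchsd2, all lower, with log2 fold changes from −1.43 to −0.33. Their calls were unsteady too, since each of these 6 was called in 1 to 3 of the 10 fits that left out a library, Mogat2 in 5 and Stim1 in 7.

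Around Lyz2 on chromosome 10, 2 further genes were called. Yeats4, a chromatin reader whose gene starts 0.0621 Mb from that of Lyz2, was at 48.5, 47.8, 45.7, 46.3 and 44.9 CPM in WT and 58.7, 57.8, 74.6, 66.9 and 65.1 CPM in Bmal1 Mye-/-. The groups did not overlap (log2 fold change 0.47, adjusted p = 0.00926). Mdm1, 0.864 Mb away, rose by 0.60 (adjusted p = 0.0469), a call that remained in 1 of the 10 fits that left out a library. The other 14 genes tested within 1 Mb were not called. Cpsf6, Mdm2, Rap1b, Cnot2 and Cct2 among them had log2 fold changes of 0.15, 0.09, 0.04, −0.03 and −0.03. The largest estimates were those of Kcnmb4 (−1.27, interval −2.77 to 0.24) and Kcnmb4os2 (−1.30, interval −2.43 to −0.17). Both had few reads, with means of 0.548 and 0.562 CPM in WT and 0.211 and 0.227 CPM in Bmal1 Mye-/-.

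Elsewhere in the genome 17 genes were called, 16 of them higher in Bmal1 Mye-/-. Auh, an enzyme of leucine breakdown on chromosome 13, was the one that fell: it was at 18.3, 17.3, 15.4, 16.2 and 13.9 CPM in WT and 10.8, 10.1, 10.6, 10.9 and 10.1 CPM in Bmal1 Mye-/-, without overlap (log2 fold change −0.63, standard error 0.08, adjusted p = 0.00394). It was also the only one of the 17 that stayed called in all 10 fits without 1 library and in the other 8 fits that kept chromosome 7. Over those 18 fits 22 of the 59 genes were tested and called every time, of which 20 lie on chromosome 7 and the others are Lyz2 and Auh. Not every fit tested each gene: Trim12a and Gm4759 were called in all 17 fits that tested them, and Rassf10 in all 16. When only the 12322 genes of the other chromosomes entered the fit and the adjustment, Lyz2 was the 1 gene called.

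Of the 16 that rose, 5 reached 2-fold, namely Adam28, Steap4, Tlr1, Tgm1 and Irf2bpl. Adam28 was near the limit of detection, at 0.0452 ± 0.0215 CPM in WT and 0.272 ± 0.122 CPM in Bmal1 Mye-/- (SD, n = 5 each). It was not tested in the IMQ-treated mice. Steap4, a metalloreductase of the cell surface, was at 6.97, 10.5, 10.6, 15.3 and 13 CPM in WT and 23.4, 24.7, 25.1, 17.2 and 31.4 CPM in Bmal1 Mye-/- (log2 fold change 1.11, adjusted p = 0.0344). Jak3, a kinase of cytokine receptors, was at 29.1 ± 1.6 and 43.2 ± 6.85 CPM (log2 fold change 0.57, adjusted p = 0.0344). Emilin2, a matrix glycoprotein gene, was at 332, 367, 425, 457 and 436 CPM in WT and 571, 558, 557, 549.5 and 561 CPM in Bmal1 Mye-/-, where the 5 libraries were nearly equal (log2 fold change 0.47). The transcription factor genes Trps1 (0.54) and Pknox2 (0.66), Irf2bpl (1.01), Upp1, a uridine phosphorylase (0.81), and Entpd3, a nucleotidase (0.94), complete the genes of smallest p with Tlr1.

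Named only to complete the list are Socs3, a brake on cytokine signalling (0.48), Tgm1 (1.09), Sema6b (0.82), Ppp1r3d (0.34), Smox (0.46), Gyk (0.48) and Adam28 (2.57). These 16 calls were less steady, since leaving out a library kept Trps1 called in 7 of 10 fits, Irf2bpl in 9, Emilin2, Steap4 and Upp1 in 4 each, Entpd3, Pknox2 and Tgm1 in 3 each, and the others besides Tlr1 in 1 or 2.

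In the other 10 mice, those given IMQ, the chromosome 7 genes went the same way and the others did not do so as a group. A separate fit of the 5 against 5 IMQ-treated libraries called 16 of 12648 genes (0.127%), and 11 of them are among the 59. All 39 called genes of chromosome 7 had the same sign in both sets of mice, as had the 3 genes on chromosome 10, while of the 16 genes elsewhere that could be tested in both, 8 had the same and 8 the opposite sign. Over all 12519 genes tested in both, 48.0% had the same sign. Trim12a was at a log2 fold change of −8.41 with IMQ, Ppfibp2 at 4.14, Inppl1 at 4.15, Gm4759 at 8.92 and Lyz2 at −6.34, all past the threshold there too. Auh was at −0.58 (standard error 0.13, adjusted p = 0.303). Among genes that rose in untreated mice, Irf2bpl, Tlr1 and Jak3 were at 1.38, 0.65 and 0.32. Emilin2, Socs3 and Entpd3 were at −0.20, −0.43 and −0.70. None of the 16 genes elsewhere passed with IMQ. The difference between the 2 sets of mice was not tested for single genes.

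**Figure D5:**
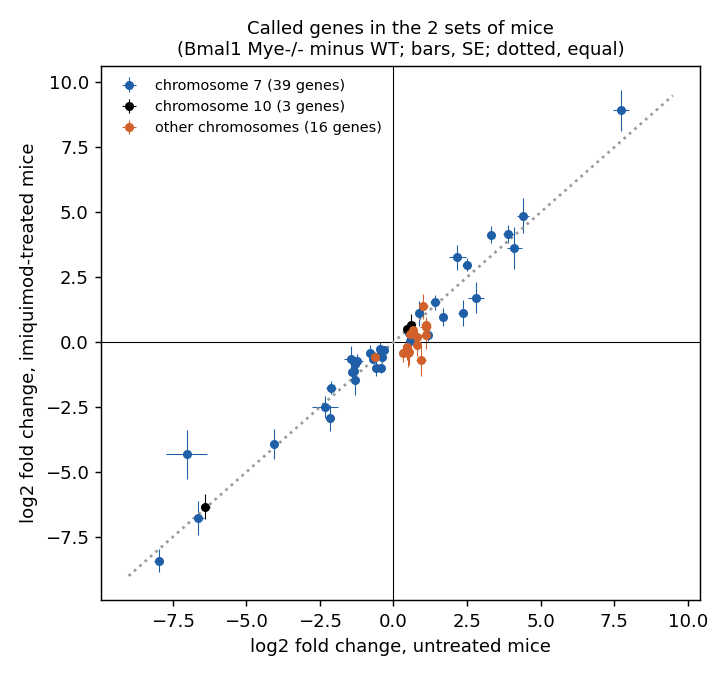
Log2 fold change (Bmal1 Mye-/- minus WT) of the called genes in the untreated mice (x axis) and in the IMQ-treated mice (y axis), with standard errors as bars, for the 58 that could be tested in both. The 39 genes of chromosome 7 lie in the quadrants of equal sign, and the 16 on other chromosomes than 7 and 10 lie on both sides of 0 on the y axis, from −0.70 to 1.38.

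Genes of other cell types were present and varied between mice of both genotypes. In bulk libraries, fewer cells of a type and less RNA per cell cannot be told apart. Of the 86 tested genes in 10 lists of other cell types, counting a gene once per list, 0 were called by edgeR, limma or DESeq2 and 5 had an unadjusted p under 0.05 in edgeR. Over all genes tested by edgeR, 906 of 13339 had such a p. Summed over its list, the B lineage was at 301 to 1369 CPM in WT and 281 to 984 CPM in Bmal1 Mye-/-, with nearly all of these reads on Jchain, a plasma cell gene (361, 289.7, 1339, 423 and 443 CPM in WT, 926, 960.0, 274, 279.8 and 382 CPM in Bmal1 Mye-/-). Its defining gene Ms4a1 stayed under 2 CPM in every library. The erythroid list was at 81.8 to 202 and 56.3 to 339 CPM, with Slc4a1, the anion exchanger of red cells, highest in replicate 4 of WT (77.2 CPM) and in replicate 1 of Bmal1 Mye-/- (134 CPM). The 6 haemoglobin genes of that list are given 0 reads in all 10 libraries and tell nothing about red cells here.

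The eosinophil list summed to 37.8 to 125 and 49.1 to 149.9 CPM, most of the reads on Prg2 (interval −0.92 to 0.94), and Siglecf of the same list had an interval of −0.08 to 0.41. The monocyte list summed to 944 to 1120.1 and 918 to 1258 CPM, most of the reads on Ly6c2 (interval −0.17 to 0.10), and the macrophage list to 52.6 to 72.9 and 53.6 to 81.3 CPM, with its defining gene C1qa under 2 CPM. Basophil and mast genes summed to 864 to 1361 and 1171 to 1548 CPM, but nearly all of these reads were on Hdc, a histidine decarboxylase gene that neutrophils also use (1092 ± 219 and 1354 ± 146 CPM, adjusted p = 0.689), and Mcpt8 was at 0.9 ± 0.497 and 1.09 ± 1.07 CPM. The lists of T and NK cells (10.8 to 13.3 and 9.29 to 13.2 CPM, most of the reads on Cd3d), dendritic cells (74.5 to 170.1 and 75.9 to 158), megakaryocytes and platelets (33.5 to 119 and 31.1 to 133) and progenitors (27.3 to 46.2 and 27.5 to 43.3) overlapped in the same way. The neutrophil list summed to 134498 to 146364 CPM in WT and 124404 to 145652 CPM in Bmal1 Mye-/-, with all 13 intervals inside 2-fold. Although no gene of these lists passed, most estimates of several lists lay above 0. They did so for 9 of 10 monocyte genes (median log2 fold change 0.26), 10 of 12 macrophage genes (0.37), 9 of 10 eosinophil genes (0.28), 6 of 6 basophil and mast genes (0.30), 9 of 10 megakaryocyte and platelet genes (0.24), 7 of 7 erythroid genes (0.20) and 6 of 9 progenitor genes (0.35), against 11 of 13 neutrophil genes below 0 (median −0.04). The medians of the erythroid and of the basophil and mast lists changed sign in 1 of the 19 alternative fits each, and those of the other 6 in 0. The B lineage, T and NK and dendritic lists were split evenly, with medians of 0.03, 0.03 and 0.07. The part of other cells in the differences above was not tested.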

How the data were processed

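Poly(A) RNA of marrow neutrophils was sequenced in 20 libraries, 1 per mouse per the labels, on 2 sequencers; which library ran on which is not given in the sources used here, so no batch could be set up. The authors deposited raw counts per gene for each library; the submitters' processing notes name STAR 2.7.8a, HTSeq 2.0.1 and mm10, while the study's methods name other tools. The strand setting of the counting is not given in the sources used here. The summary rows of each file (no feature, ambiguous, not unique) were dropped.

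The members, gene lists and named genes were chosen with earlier results of these data known. Genes passing filterByExpr were tested with edgeR 4.0.16 (R 4.3.3; TMM factors 0.95 to 1.05, quasi-likelihood test, 5 against 5 untreated libraries, no covariate, Benjamini-Hochberg over 13339 genes, threshold 0.05). Intervals are 95% and use each gene's residual degrees of freedom (median 11.9). On simulated counts of 13202 genes the fit recovered 95 of 97 genes changed 4-fold and 64 of 100 changed 2-fold, with 4 false calls. Named were Arntl, Lyz2, Lyz1, the 15 higher and 15 lower genes of smallest adjusted p, 12 called genes off chromosome 7, all clock genes, and in each other list the 2 genes of highest CPM and the 2 of smallest p, with Tnfsf13, Tnfsf13b, Ifna4 and a granule gene score; other names were chosen after their values were seen. Bounds of 1.5-fold and 2-fold served to describe what did not change. TPM was computed here from union exon lengths (24046 genes), and positions came from GENCODE M21 on GRCm38 (23376 genes by symbol, 670 by an older symbol) or RefSeq (262); 113 genes had none. The alternatives were a fit of all 4 groups, DESeq2 1.42.0, RLE factors, no filter, at least 10 counts in every library, limma 3.58.1 on log2(CPM + 0.1), the replicate number as a block, counts thinned to the smallest library, chromosome 7 left out, and each library left out. No 2 untreated libraries of the same genotype (20 pairs) were identical within sampling noise, and other pairs were not checked. Some genes of the lists are not reported here by name. P-values measure the spread between these 10 mice.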

Additional observations from a re-analysis of the deposited data

Results flagged for a closer look

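Single libraries stood apart from the other 4 of their group in 29 of 392 groups of 5 values examined (7.40%), by a gap to the nearest of the others above 0.71 of the group's range; chance alone marks about 1 group in 20. WT replicate 3 carried 7 of them: it was high for Jchain (1339 CPM), Cd79a (12.8 CPM), Cd74 (121 CPM), the summed B lineage list (1369 CPM), Bhlhe41 (2.49 CPM) and reads on genes (79689416), and low for P2ry2 (12.4 CPM). Jchain, Cd79a and Cd74 are genes of B-lineage and antigen-presenting cells, and the same mouse was high for all 3.

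Bmal1 Mye-/- replicate 3, the library with the fewest reads, was low for Nr1d1 (1.27 CPM), Ccr9 (0.0669 CPM) and Lbr (697 CPM) and high for Dbp (2.98 CPM) and Serpinb1a (546 CPM). Nr1d1 and Dbp are both clock genes and stood apart in opposite directions in this mouse. Bmal1 Mye-/- replicate 1 was high for the red cell genes Slc4a1 (134 CPM) and Alas2 (31.1 CPM), for the mast cell and basophil protease gene Prss34 (9.20 CPM) and for Ifna4 (0.0139 CPM, 1 read). WT replicate 4 was likewise high for Slc4a1 (77.2 CPM) and Alas2 (16.6 CPM) and low for Tnfsf13 (0.509 CPM).

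WT replicate 5 was high for Ctsc (19.8 CPM), Mx1 (3.35 CPM), Cx3cr1 (6.77 CPM) and the summed monocyte list (1120 CPM). Bmal1 Mye-/- replicate 4 was low for Wee1 (3.98 CPM) and Anln (22.4 CPM) and high for Trim34a (11.8 CPM). Bmal1 Mye-/- replicate 5 was high for Trim68 (3.77 CPM), and Bmal1 Mye-/- replicate 2 for Rpl27 (31.8 CPM) and Rassf10 (0.0108 CPM, its single read). None of these libraries was left out of the comparison above.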

How the results depend on the processing

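The count of called genes was 59 (35 higher, 24 lower). It was 29 (15 and 14) with all 4 groups in 1 fit, 141 (101 and 40) with DESeq2, and 1 (0 and 1) with chromosome 7 left out, where edgeR gave 782 genes at an unadjusted p under 0.05. Leaving out 1 library gave 35 to 90 calls, 18 to 64 higher and 16 to 26 lower, the most without Bmal1 Mye-/- replicate 3; 23 rather than 35 were higher without WT replicate 2. RLE factors, no filter, the 10-count filter, limma and thinned counts gave 44 to 60. With the replicate number as a block 33 genes were called (16 higher, 17 lower), 32 of them shared with the 59. Same-numbered libraries deviated from their group means with correlations of −0.474, 0.0344, −0.230, 0.263 and −0.199. What the numbers stand for is not given in the sources used here, so these values cannot show whether mice were paired. The causes were not tested.

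The count of genes with an interval inside 2-fold stayed between 9938 and 11616. The log2 fold change of Arntl was −1.10 to −0.78 without single libraries. None of the 40 named genes that were called changed sign, and 16 lost their call in at least 1 alternative; of the 120 that were not called, 115 were never called and 36 changed sign at least once. Genes under 1 CPM are limited by depth, and Bmal1 Mye-/- replicate 3 by its 30782166 reads.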

Other observations

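Genes of bone matrix, which none of the lists held and which were picked after their values were seen, moved together from mouse to mouse. Col1a1, a chain of type I collagen, was at 147, 241, 31.2, 70.1 and 61.4 CPM in WT replicates 1 to 5 and at 293, 214, 74.9, 420 and 340 CPM in Bmal1 Mye-/- replicates 1 to 5. Its partner chain Col1a2 was at 143, 248, 44.8, 75.0 and 59.5 CPM in WT and at 307, 236, 72.1, 422 and 343 CPM in Bmal1 Mye-/-. The groups overlapped for both. Bmal1 Mye-/- replicate 3 lay below WT replicates 1 and 2, and Bmal1 Mye-/- replicate 2 lay below WT replicate 2. Sparc, a matrix protein of bone, ranged from 18.6 to 71.6 CPM in WT and from 22.5 to 119 CPM in Bmal1 Mye-/-. Col2a1, a collagen of cartilage, was highest in WT replicate 2 and in Bmal1 Mye-/- replicate 4, as were the other 3. None of these genes passed, with log2 fold changes of 1.29, 1.28, 1.23 and 1.51 and adjusted p-values of 0.689, 0.659, 0.618 and 0.618 in edgeR for Col1a1, Col1a2, Sparc and Col2a1.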
